A study of Mus musculus with 6 samples.

Results

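The genes described here are 10 members of the NRF2 and BACH1 antioxidant pathway of the mouse: the regulators Nfe2l2, Keap1, Bach1 and Mafg and the target genes Hmox1, Nqo1, Gclm, Gclc, Srxn1 and Txnrd1. They were chosen by name, with earlier results of these data known. Every row of the deposited table with one of the 10 gene symbols was taken. This gave 12 probe sets among the 25123 that carry a symbol (22319 distinct genes). Mafg had 3 probe sets and each other gene had 1. RNA came from mouse c-kit+ bone marrow progenitors transformed by MLL-AF9, a fusion oncogene of acute myeloid leukemia, and was read on Affymetrix Mouse Gene 1.0 ST arrays. All 6 samples carried MLL-AF9. The control group had received the empty retroviral vector pMIG (n = 3 arrays) and the other group pMIG-TGIF1 (n = 3 arrays, here called TGIF1-labelled), the vector with TGIF1, a homeodomain repressor of transcription. Cells were sorted for GFP on day 3 after the first transduction, kept in medium for 1 day and lysed. The labels give no strain, age, promoter or species of the TGIF1 sequence, and do not say whether the replicates were separate transductions, so a p-value speaks only of the spread among these arrays, which may be technical. In bulk RNA, more cells that express a gene and more RNA per cell cannot be told apart.

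NRF2, encoded by Nfe2l2, is a bZIP transcription factor that the adaptor KEAP1 holds for degradation by a CUL3 ubiquitin ligase. Electrophiles and oxidants modify KEAP1, so that NRF2 accumulates, pairs with a small MAF protein such as MAFG and binds antioxidant response elements. BACH1 pairs with the same small MAF proteins and represses many of the same elements, above all those of Hmox1, until heme binds BACH1 and it leaves the DNA. In myeloid cells, heme oxygenase 1 is known as an enzyme of macrophages that break down heme.

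The direction of each change rests on the labels, because Tgif1 itself went against them. Its probe set read 320, 376 and 408 in pMIG but 239, 239 and 258 in the TGIF1-labelled arrays (log2 -0.58 ± 0.11 SE, limma adjusted p = 0.00286). Where its probes lie relative to the transduced sequence was not tested, so this value may check nothing. Array medians were 79.3 to 80.4 in pMIG and 85.2 to 87.7 in the TGIF1-labelled arrays, in units of normalized linear intensity. Of all 25123 transcript clusters, 24.7% were called at an adjusted p under 0.05, with 11.5% higher and 13.2% lower (2892 and 3308). With every array centred on its median, the middle of all log2 changes moved by -0.11 and the calls were 2179 higher and 4870 lower. The array of pMIG-TGIF1 replicate 3 had the lowest limma array weight (0.562), while the others ran from 0.980 to 1.52. Of 7 markers of MLL-AF9 progenitors 5 fell and 0 rose (2 fell without pMIG replicate 1, and 3 without pMIG replicate 2 or without TGIF1-labelled replicate 1), and among them Meis1 had a mean of 1090 in pMIG and 502 in the TGIF1-labelled arrays.

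Of the 10 pathway genes, 5 rose (Hmox1, Nqo1, Gclm, Nfe2l2 and Bach1), 2 fell (Gclc and Txnrd1) and 3 did not pass the test (Keap1, Mafg and Srxn1). Over all transcript clusters 11.5% rose and 13.2% fell. Only 3 of the 10 genes rose at least 1.5-fold (6.01% of all transcript clusters did): Hmox1 6.51-fold, Nqo1 2.39-fold and Gclm 1.86-fold. The falls of Gclc and Txnrd1 were 1.39-fold and 1.38-fold. The ordinary model without moderation called those 3 genes higher and 0 lower, at the same folds. Known NRF2 targets thus moved in both directions within the same 6 arrays. The groups did not overlap in 9 of the 12 probe sets, 7 higher and 2 lower. Over all transcript clusters this share was 38.4%, with 18.7% higher and 19.7% lower. For a single probe set, 3 arrays against 3 cannot give an exact two-sided permutation p below 0.1, and these 9 probe sets had that p.

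The promoter windows of the target genes were read for a fixed form of the letters that NRF2 and BACH1 dimers recognise. Matches to it near the starts of risen and fallen targets can thus be compared. RefSeq windows (GRCm38.p6, 250 bases before to 50 after a gene's start, on the gene's own strand) were found by symbol for 8 of the 10 genes, 10 windows in all. No window was found for Hmox1 and Gclc. The search used the antioxidant response element core TGACNNNGC and the AP-1 core TGACTCA on both strands. A TGACTCA followed by GC would match both. Capitals mark a match on either strand.
Nqo1, chr8:107403156-107403455, minus strand: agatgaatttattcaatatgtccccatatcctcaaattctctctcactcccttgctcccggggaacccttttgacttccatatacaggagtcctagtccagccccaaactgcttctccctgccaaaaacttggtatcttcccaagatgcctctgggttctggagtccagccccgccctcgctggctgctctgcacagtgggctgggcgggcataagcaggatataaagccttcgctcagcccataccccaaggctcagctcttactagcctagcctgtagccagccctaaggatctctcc
Gclm, chr3:122245307-122245606, plus strand: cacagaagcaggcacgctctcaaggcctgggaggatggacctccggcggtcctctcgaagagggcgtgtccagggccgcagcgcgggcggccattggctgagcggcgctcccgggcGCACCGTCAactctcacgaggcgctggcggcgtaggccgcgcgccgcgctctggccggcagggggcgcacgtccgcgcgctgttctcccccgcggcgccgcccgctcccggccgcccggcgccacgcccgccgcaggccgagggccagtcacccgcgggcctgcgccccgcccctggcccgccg
Srxn1, chr2:152105274-152105573, plus strand: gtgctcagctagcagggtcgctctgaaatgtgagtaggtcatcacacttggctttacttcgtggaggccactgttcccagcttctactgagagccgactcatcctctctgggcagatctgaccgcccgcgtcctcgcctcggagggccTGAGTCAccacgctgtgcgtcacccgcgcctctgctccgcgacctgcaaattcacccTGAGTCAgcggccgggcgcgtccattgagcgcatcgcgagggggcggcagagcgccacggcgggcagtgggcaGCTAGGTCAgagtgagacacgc
Txnrd1, chr10:82858956-82859255, plus strand: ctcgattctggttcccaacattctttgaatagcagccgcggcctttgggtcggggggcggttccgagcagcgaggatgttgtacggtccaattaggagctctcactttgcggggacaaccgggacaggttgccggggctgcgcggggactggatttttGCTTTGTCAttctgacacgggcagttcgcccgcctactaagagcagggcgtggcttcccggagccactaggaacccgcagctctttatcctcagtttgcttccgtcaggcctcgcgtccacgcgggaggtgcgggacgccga
Matches to the antioxidant core stood in 5 of the 10 windows (Nfe2l2, Mafg, Gclm, Srxn1 and 1 of 3 of Txnrd1), and in 12.4% of all 32851 windows in the table. In Gclm, which rose, the match began 134 bases before the start. In Txnrd1, which fell, it began 92 bases before the start, and Nqo1, which rose more than Gclm, held none in its window. Srxn1 was the only one of the 8 genes with the AP-1 core, at 102 and 45 bases before the start, against 5.20% of all windows. The match at 45 bases is followed by GC. Its letters, TGAGTCAGC, have G where the antioxidant core used here has C, so the search could not count it as an antioxidant match. The antioxidant match that was counted in Srxn1 began at position 29 after the start. A match here describes letters and not a site of binding, and elements outside these 300 bases were not read.

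Among the regulators, Nfe2l2 rose modestly. Its probe set read 527, 607 and 569 in pMIG and 707, 781 and 861 in the TGIF1-labelled arrays. All 3 of the latter lay above all 3 controls, and the change was 1.38-fold (95% CI 1.17 to 1.62, log2 0.46 ± 0.11 SE, limma adjusted p = 0.00851). Keap1, the inhibitor of NRF2, read 383, 405 and 348 in pMIG and 367, 311 and 356 in the TGIF1-labelled arrays. These groups overlapped, and the log2 fold change of -0.14 ± 0.10 did not pass (limma adjusted p = 0.421). Its 95% interval ran from 0.775 to 1.07 times the control, which does not show that Keap1 was equal in both groups.

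Bach1, the repressor of Hmox1, was also higher in the TGIF1-labelled arrays. BACH1 protein was not measured. It read 370, 387 and 419 in pMIG and 520, 456 and 539 in the TGIF1-labelled arrays, without overlap, a 1.29-fold rise (log2 0.36 ± 0.10 SE, limma adjusted p = 0.0237). This call was lost without pMIG replicate 1 (log2 0.32, adjusted p = 0.0911), pMIG replicate 2 (0.35, adjusted p = 0.0735), pMIG-TGIF1 replicate 1 (0.34, adjusted p = 0.0672) or pMIG-TGIF1 replicate 3 (0.31, adjusted p = 0.0653). Array median centring also ended it (log2 0.26, adjusted p = 0.0863), as did the fit without moderation (log2 0.36, adjusted p = 0.0795). The direction was kept in all of these.

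Mafg, the small MAF partner of both factors, did not pass on any of its 3 probe sets. Probe set 10393879 read 1253, 1060 and 1097 in pMIG and 1569, 1253 and 1381 in the TGIF1-labelled arrays, and its groups overlapped (log2 0.30 ± 0.11, limma adjusted p = 0.0831). Probe set 10393877 had a log2 fold change of 0.25 ± 0.10 without overlap (limma adjusted p = 0.0920), and probe set 10393881 one of 0.16 ± 0.10 with overlap (limma adjusted p = 0.315). The 3 estimates had the same sign. Averaged into 1 value, they gave 0.24 (limma adjusted p = 0.118). The first was called when pMIG-TGIF1 replicate 2 was left out (0.38, adjusted p = 0.0485) and the second with quantile normalization (0.31, adjusted p = 0.0474).

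**Figure D1:**
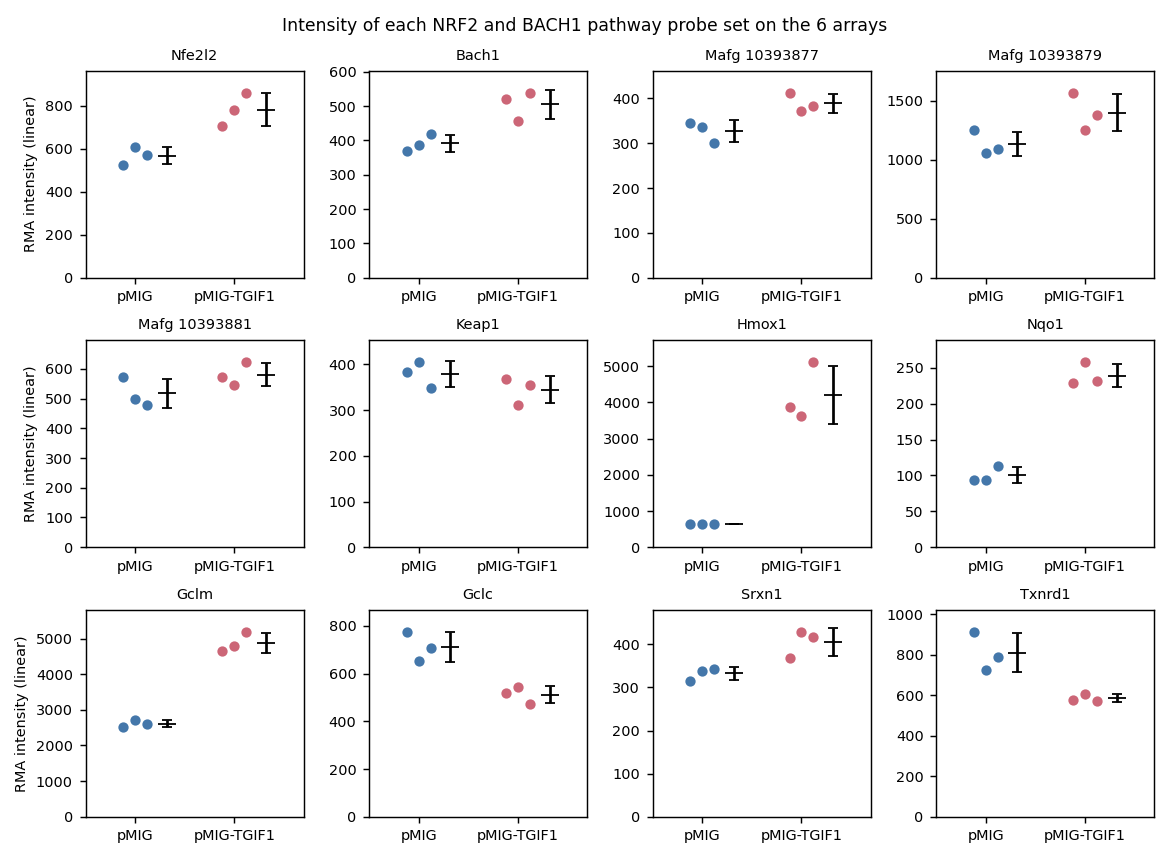
Normalized linear intensity (vertical axis, from 0) of the 12 probe sets on the 3 pMIG arrays (blue) and the 3 arrays labelled pMIG-TGIF1 (red), replicates 1 to 3 from left to right. Black bars are the mean and SD of each group. Hmox1 separates the groups most widely, and Gclc and Txnrd1 are the panels in which the red points all lie below the blue ones.

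Hmox1, the heme oxygenase that opens the heme ring to biliverdin, iron and carbon monoxide, had the largest change of the 10. Its probe set read 640, 637 and 636 in pMIG, an SD of 1.75 around the mean of 638. In the TGIF1-labelled arrays it read 3866, 3621 and 5106 (mean 4197, SD 796). Every one of these lay far above the controls, and replicate 3 was the highest. The rise was 6.51-fold (95% CI 5.35 to 7.92, log2 2.70 ± 0.13 SE, limma adjusted p = 4.68e-07). Leaving out replicate 3 of pMIG-TGIF1 gave a log2 change of 2.55, the lowest of all alternatives run.

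Nqo1, the quinone reductase commonly used as an NRF2 readout, read 94.1, 93.2 and 113 in pMIG. It read 229, 257 and 231 in the TGIF1-labelled arrays, all above every control, a 2.39-fold rise (95% CI 2.03 to 2.82, limma adjusted p = 2.05e-05). Srxn1, sulfiredoxin, which repairs overoxidized peroxiredoxins, read 316, 339 and 344 in pMIG and 368, 429 and 418 in the TGIF1-labelled arrays. The groups did not overlap, but the log2 difference of 0.28 ± 0.10 missed the threshold (limma adjusted p = 0.0610). Quantile normalization called it (0.34, adjusted p = 0.0218), as did a fit with the dimmest 30% (adjusted p = 0.0470) or 50% (adjusted p = 0.0364) of probe sets left out, and one lacking pMIG-TGIF1 replicate 1 (0.35, adjusted p = 0.0369).

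The genes of glutamate-cysteine ligase, the rate-limiting enzyme of glutathione synthesis, went in opposite directions. Gclm, the modifier subunit, read 2518, 2708 and 2608 in pMIG and 4640, 4784 and 5188 in the TGIF1-labelled arrays, a 1.86-fold rise (95% CI 1.62 to 2.15, limma adjusted p = 6.34e-05). Gclc, the catalytic subunit, read 775, 652 and 706 in pMIG and 517, 544 and 474 in the TGIF1-labelled arrays, a 1.39-fold fall (95% CI 1.19 to 1.62, limma adjusted p = 0.00628). Neither gene's groups overlapped. Within each array the ratio of Gclm to Gclc does not depend on how the array was scaled. Relative to the pMIG mean it was 0.883, 1.13 and 1.00 in pMIG and 2.44, 2.39 and 2.97 in the TGIF1-labelled arrays, a 2.59-fold shift (log2 1.37). This pair was set side by side after its values were seen, and the ratio had to separate the groups because both genes do, so it is given with no test. The log2 shift ran from 1.27 to 1.46 on leaving out each array in turn.

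**Figure D2:**
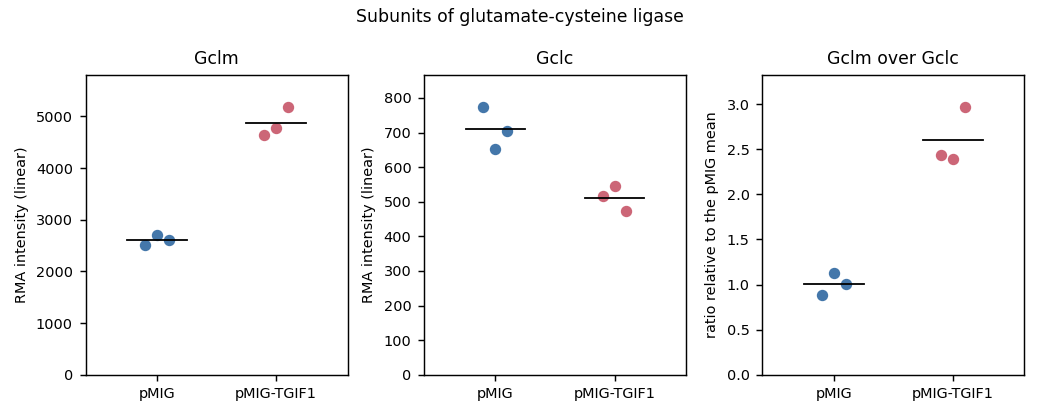
Normalized linear intensity of Gclm and Gclc, and their ratio within each array relative to the pMIG mean, for the 3 pMIG arrays (blue) and the 3 arrays labelled pMIG-TGIF1 (red). Horizontal lines are group means. Gclm is higher and Gclc lower in all 3 red points, and the ratio is at least 2.39 there against at most 1.13 in pMIG.

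Txnrd1, the cytosolic thioredoxin reductase, also fell. It read 914, 724 and 792 in pMIG and 575, 609 and 573 in the TGIF1-labelled arrays, a 1.38-fold fall without overlap (95% CI 1.17 to 1.62, limma adjusted p = 0.00853). In the authors' deposited table Gclc has a fold change of -1.39 and Txnrd1 one of -1.38, each with p = 0.01. The same table gives Srxn1 a p of 0.02 and Mafg probe set 10393877 a p of 0.03. Whether these were adjusted over all transcript clusters is not given in the sources used here.

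**Figure D3:**
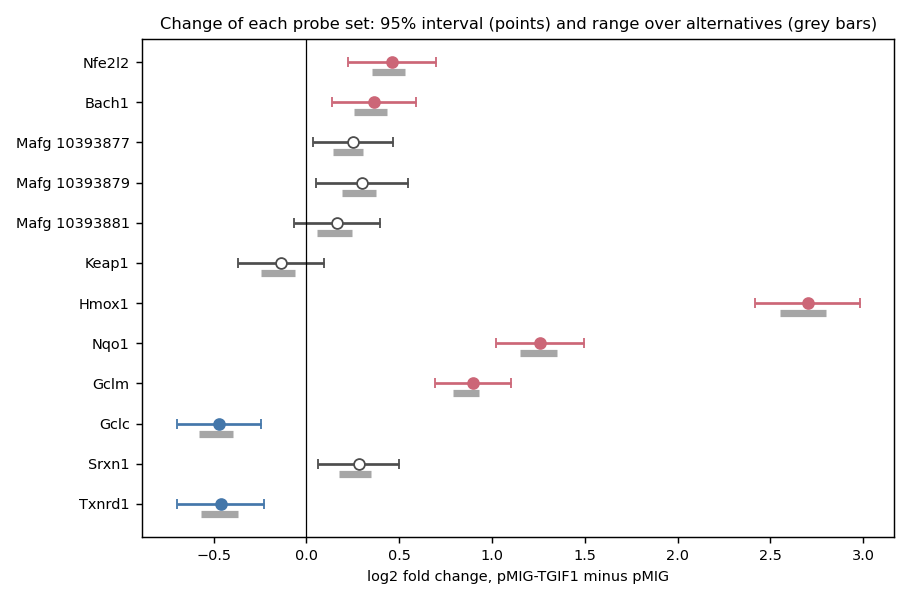
Log2 fold change (horizontal axis, pMIG-TGIF1 minus pMIG) of the 12 probe sets with 95% confidence intervals from limma. Filled points were called (red higher, blue lower), open points were not, and grey bars span the values under all alternatives. No grey bar crosses 0, and the bar of Hmox1 runs from 2.55 to 2.80.

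Relatives of the regulators were read from a list of 8 CNC-bZIP and MAF genes, of which 4 rose and 1 fell (50% and 12.5%, against 11.5% and 13.2% of all transcript clusters). Among the small MAF genes, Maff and Mafk parted. Maff read 53.4, 67.6 and 56.6 in pMIG and 87.9, 95.8 and 149 in the TGIF1-labelled arrays, a 1.83-fold rise (limma adjusted p = 0.00497). Mafk read 224, 210 and 225 in pMIG and 135, 156 and 121 in the TGIF1-labelled arrays, a 1.61-fold fall (limma adjusted p = 0.000977). So of the small MAF genes 1 rose, 1 fell and Mafg did not pass. Maf, a large MAF protein that regulates macrophage genes, rose 3.67-fold, and the NRF2 relative Nfe2l1 rose 1.38-fold. Bach2, the relative of Bach1, had a log2 change of 0.062 ± 0.11 (limma adjusted p = 0.771) and Nfe2 one of 0.16 ± 0.11 (limma adjusted p = 0.360).

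Of 13 genes that control NRF2 protein or its activity, 1 rose and 2 fell (2 and 2 with quantile normalization, or without pMIG replicate 2 or pMIG-TGIF1 replicate 1). These shares, 7.69% and 15.4%, lay near the 11.5% and 13.2% of all transcript clusters, so the list as a whole did not stand apart. Sqstm1 encodes p62, an autophagy receptor that binds KEAP1 and is itself an NRF2 target. It read 1602, 1527 and 1710 in pMIG and 3376, 3442 and 3444 in the TGIF1-labelled arrays, a 2.12-fold rise (limma adjusted p = 1.70e-05). Palb2, a DNA repair protein that can bind KEAP1, fell 1.69-fold, and Pgam5, a mitochondrial phosphatase bound by KEAP1, fell 1.51-fold. Cul3, the ligase scaffold, had a log2 change of -0.027 ± 0.11 (limma adjusted p = 0.903), and Rbx1 one of 0.13 ± 0.10 on the brighter of its 2 probe sets and -0.11 on the other, neither of which passed.

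A list of 36 other NRF2 target genes had 20 higher and 3 lower, with a median log2 fold change of 0.39 against 0.010 over all transcript clusters. The share that rose was 55.6%, against 11.5% of all transcript clusters, and the share that fell was 8.33%, against 13.2%. Like the other lists, this one was chosen with earlier results of these data known, so the contrast is a description and not a test. With array median centring the counts of this list were 16 higher and 5 lower, against 2179 and 4870 of all 25123 transcript clusters. Without moderation they were 14 and 3, against 1754 and 1647 of all. On leaving out single arrays 16 to 19 rose and 2 to 3 fell, against 2323 to 2724 and 2537 to 3187 of all. Of the 36 listed genes 10 rose at least 2-fold. At the looser cut of 1.5-fold, 6.01% of all transcript clusters rose. Me1, malic enzyme, which makes NADPH, rose 3.70-fold (from 107 to 122 in pMIG to 408 to 443), and Ephx1, the microsomal epoxide hydrolase, 3.94-fold from a dim control level of 27.9 to 35.4. Mt2, a metallothionein, rose 3.62-fold, the glutathione transferases Gsta3 and Gsta4 3.57-fold and 2.49-fold, and the aldo-keto reductase Akr1b8 3.07-fold. The cystine carrier Slc7a11, which feeds glutathione synthesis, read 134, 150 and 143 in pMIG and 467, 433 and 449 in the TGIF1-labelled arrays. Mgst1, a membrane-bound glutathione transferase, rose 2.64-fold, and Abcc1, which exports glutathione conjugates, 2.06-fold. Prdx1, a peroxiredoxin, rose 2.11-fold on one probe set and 2.16-fold on its other.

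Not all target genes shared this direction. Among the mu-class transferases Gstm2 fell 1.87-fold and Gstm1 1.35-fold, while Gstm3 (log2 -0.20) and Gstm4 (-0.22) did not pass. Among the alpha-class transferases, beside the rises of Gsta3 and Gsta4, Gsta1 (log2 0.27, limma adjusted p = 0.115) and Gsta2 (0.042, limma adjusted p = 0.849) did not pass. None of the 4 pentose phosphate genes of the list, whose pathway also supplies NADPH, was called higher. Taldo1 fell 1.22-fold (limma adjusted p = 0.0463), a call lost on leaving out any 1 of the 6 arrays (adjusted p from 0.0526 to 0.144), while G6pdx (log2 -0.081, limma adjusted p = 0.757), Pgd (-0.17, limma adjusted p = 0.295) and Tkt (-0.11, limma adjusted p = 0.459) did not pass. Gsr, glutathione reductase, was at -0.18 ± 0.09 (limma adjusted p = 0.203). Txn1, thioredoxin, was at 0.14 ± 0.09 on the brighter of its 2 probe sets (limma adjusted p = 0.336) and at -0.0065 on the other (limma adjusted p = 0.982). Glutathione transferases and metallothioneins have close copies, so signal between members of these families may be shared.

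In a list of 28 further glutathione, peroxiredoxin, thioredoxin and superoxide enzymes, 5 rose and 4 fell, and the median log2 fold change was 0.12. These shares, 17.9% and 14.3%, were close to the 11.5% and 13.2% of all transcript clusters, so the members named here describe single genes and not the list. With array median centring 4 rose and 6 fell, against 2179 and 4870 of all 25123 transcript clusters. Without pMIG replicate 2 or 3 only 2 fell, against 2641 and 2537 of all transcript clusters. Ggt1, which breaks down extracellular glutathione, rose 1.80-fold, and the peroxiredoxin Prdx4 1.64-fold. Txnip, the thioredoxin inhibitor, read 1878, 1908 and 1779 in pMIG and 2412, 2402 and 4679 in the TGIF1-labelled arrays, a log2 change of 0.70 (limma adjusted p = 0.0398) that was 0.38 without pMIG-TGIF1 replicate 3 (adjusted p = 0.0175). Its call was lost without pMIG replicate 1, 2 or 3 (adjusted p from 0.0895 to 0.116). Sod2, the mitochondrial superoxide dismutase, read 1147, 1068 and 1025 in pMIG and 617, 658 and 591 in the TGIF1-labelled arrays, a 1.74-fold fall. Ggct, of the gamma-glutamyl cycle (log2 -0.58 ± 0.09), and the mitochondrial thioredoxin Txn2 (1.35-fold) fell. The call of Txn2 was lost without pMIG replicate 2 (adjusted p = 0.0613) or pMIG replicate 3 (adjusted p = 0.0751).

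Beside the rise of Hmox1, several genes of heme synthesis fell. Of 21 genes of heme synthesis, breakdown and transport, 2 rose and 8 fell, with a median log2 fold change of -0.055. The share that fell was 38.1%, against 13.2% of all transcript clusters, and the share that rose was 9.52%, near the 11.5% of all. On leaving out pMIG replicate 2, pMIG replicate 3 or else pMIG-TGIF1 replicate 1, 1 of them rose. Among those that fell were the synthesis enzymes Cpox (1.49-fold), Uros (1.48-fold), Urod (1.31-fold) and Fech (1.31-fold), the mitochondrial glycine carrier Slc25a38 (1.65-fold), the heme-binding Pgrmc1 (1.64-fold) and the exporter Abcg2 (1.77-fold). Without pMIG replicate 3 the calls of Uros (adjusted p = 0.0503) and Urod (adjusted p = 0.0930) were lost, and that of Fech was lost on removing pMIG replicate 1 or 2 or either of the first 2 TGIF1-labelled arrays (adjusted p from 0.0629 to 0.124). Alas1, which starts heme synthesis outside the red cell lineage, did not pass (log2 -0.11 ± 0.10, limma adjusted p = 0.490). Slc48a1, which moves heme out of the lysosome, rose 1.44-fold, and the transporter Flvcr2 1.34-fold. The Flvcr2 call was lost on removing pMIG replicate 2 or 3, or TGIF1-labelled replicate 1 or 3 (adjusted p from 0.0586 to 0.0867). The constitutive oxygenase Hmox2 read 574, 530 and 641 in pMIG and 531, 603 and 659 in the TGIF1-labelled arrays, fully overlapping (log2 0.038 ± 0.11, limma adjusted p = 0.869). The biliverdin reductases Blvra (log2 0.14) and Blvrb (log2 -0.020), which act on the product of HMOX1, did not pass. The ferritin genes, which store the released iron and carry antioxidant elements, rose 1.40-fold (Fth1) and 1.24-fold (Ftl1), the latter call being lost on removing pMIG replicate 1 or 2, or TGIF1-labelled replicate 1 or 3 (adjusted p from 0.0684 to 0.108).

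**Figure D4:**
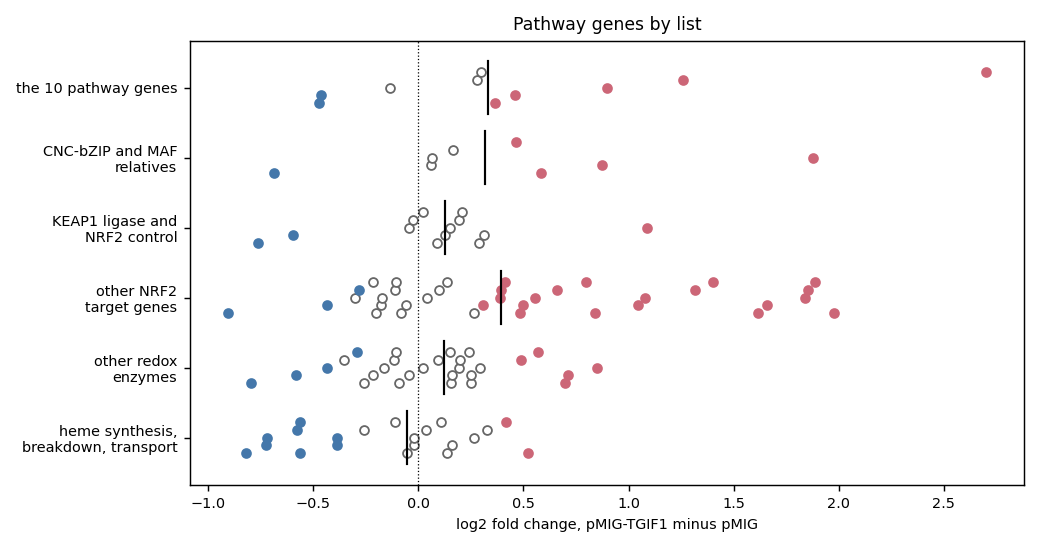
Log2 fold change (horizontal axis, pMIG-TGIF1 minus pMIG) of the 10 pathway genes and of the 5 related lists, with 1 probe set per gene, the brightest. Filled points were called (red higher, blue lower), open points were not, and black bars are list medians. Other NRF2 targets lie mostly to the right (median 0.39) and heme genes around 0 (median -0.055).

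Some macrophage markers were higher in the arrays in which Hmox1 rose. Of 15 monocyte and macrophage markers 7 rose, 0 fell and 8 did not pass. The share that rose was 46.7%, while of all transcript clusters 11.5% rose and 13.2% fell. The summed intensity of the 15 markers went from between 18574 and 21196 in pMIG to between 30653 and 33507. Cd14 rose 5.02-fold and Mertk 5.60-fold, but Spic and Cd163, markers of heme-recycling macrophages, had means of 25.7 and 22.6 in pMIG and 26.3 and 23.0 in the TGIF1-labelled arrays and did not pass. Csf1r (log2 0.19), Itgam (0.14), Fcgr1 (-0.042), C1qa (-0.036), C1qb (0.31) and Vcam1 (0.23) did not pass either. Erythroid markers were dim throughout, with 7 genes summing to between 267 and 286 in pMIG and between 288 and 343 in the TGIF1-labelled arrays, although Hba-a1 (1.30-fold) and Hbb-b1 (1.46-fold) rose. The call of Hba-a1 was lost on removing pMIG replicate 1 or 3 (adjusted p up to 0.0592), and that of Hbb-b1 on removing pMIG replicate 2 or 3, or TGIF1-labelled replicate 1 or 3 (adjusted p up to 0.0713). Among 6 megakaryocyte and platelet markers, Pf4, platelet factor 4, read 54.3, 38.8 and 66.6 in pMIG and 1067, 1000 and 785 in the TGIF1-labelled arrays, an 18.2-fold rise that exceeds that of Hmox1. Vwf rose by 0.68 on the log2 scale, and Itga2b, Gp1ba and Gp9 did not pass. Of the 6 markers 2 rose, 0 fell and 4 did not pass, with a median log2 change of 0.087. The share that rose was 33.3%, against 11.5% of all transcript clusters. Their summed intensity went from between 326 and 369 to between 1123 and 1420, and Pf4 alone made up most of that rise. Neutrophil markers had 2 higher (1 to 3 on leaving out single arrays) and 1 lower of 6, or 33.3% and 16.7%. Mast cell markers had 1 lower of 5 (2 without pMIG replicate 1 or TGIF1-labelled replicate 1), and lymphoid and stromal markers 1 lower of 5. That is 20% in each of these lists, and 13.2% of all transcript clusters fell. In lists of 5 or 6 genes a single call moves the share widely. The part of these markers in the changes of the pathway genes was not tested.

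The log2 values of Hmox1 correlated most closely with those of Rhoc, a small GTPase (Pearson r = 0.9998 across 6 arrays). Next came Trf, the iron carrier transferrin (r = 0.9994), and Lamc1, a laminin chain (r = 0.9994). A Pearson r does not depend on the size of a change: Rhoc rose 12.9-fold, Trf 4.43-fold and Lamc1 2.24-fold. Like Hmox1, each was highest in pMIG-TGIF1 replicate 3, with Trf at 258, 274 and 276 in pMIG and 1099, 1075 and 1431 in the TGIF1-labelled arrays. The arrays fall into 2 groups that share most of this pattern. Symbols of predicted genes, clones and microRNAs were left out of this ranking, and 248 of the other probe sets had r above 0.99.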

How the data were processed

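Expression in 6 samples (3 pMIG, 3 pMIG-TGIF1) was measured from 300 ng of total RNA each on 1-colour arrays. The deposited values are linear intensities per probe set that the authors obtained with RMA in Partek, per the submitters' processing notes, and both tables hold the same 28853 probe sets (largest difference 0). RMA normalizes between arrays and can compress small changes. The authors also deposited a rounded p-value and a signed score of fold change, whose test is not given in the sources used here. Scanner files and detection calls were not used here, so the number of arrays limits the precision.

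The log2 of each intensity entered a linear model in limma 3.58.1 (R 4.3.3; lmFit, eBayes) over all 25123 probe sets with a symbol, and p-values were adjusted by Benjamini-Hochberg over all of them. A call was an adjusted p under 0.05. No dim probe sets were left out of this fit, and all 12 pathway probe sets were brighter than the dimmest 50%. The fit was tested on simulated data. Symbols were updated through RefSeq (GRCm38.p6), used only for names and promoter windows. For listed genes with several probe sets, the brightest was used.

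The 10 genes and all lists were chosen with earlier results of these data known. Genes named are the 10, listed genes called at 1.5-fold or more, further listed genes by smallest p, the 3 genes most correlated with Hmox1, and other list members picked once their values were known. Alternatives were a replicate block, a trend with robust prior, no moderation, quantile normalization, median centring, filters on the dimmest 30% or 50%, 1 probe set per gene, inclusion of unnamed probe sets, array weights, and each array left out. Averaging the Mafg probe sets, and leaving out arrays for single listed genes and markers, were added after seeing the data. Replicate numbers did not pair the arrays. Some genes of the related lists and markers are counted but not reported by name here.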

Additional observations from a re-analysis of the deposited data

How the results depend on the processing

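Hmox1, Nqo1 and Gclm kept their direction and their call under all 16 alternatives, with log2 fold changes of 2.55 to 2.80, 1.15 to 1.35 and 0.79 to 0.93. No pathway probe set changed sign under any alternative. The ordinary model without moderation called 3 of the 10 genes higher and 0 lower (1754 and 1647 of all transcript clusters). At unchanged folds it lost Nfe2l2 (0.46, adjusted p = 0.0635), Bach1 (0.36, adjusted p = 0.0795), Gclc (-0.47, adjusted p = 0.0507) and Txnrd1 (-0.46, adjusted p = 0.0639). It also gave 2 higher among the CNC-bZIP and MAF relatives, 1 lower among the genes that control NRF2, and 1 higher and 4 lower among the heme genes. Bach1 was lost with array median centring (0.26), and on leaving out single arrays ran from 0.31 to 0.43. Leaving out single arrays gave 0.24 to 0.35 for Srxn1 and 0.21 to 0.38 for Mafg probe set 10393879. Srxn1 was called with quantile normalization (0.34) and with the dimmest 30% or 50% left out (0.28 each), and Mafg probe set 10393877 with quantile normalization (0.31).

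Counts in the lists moved as follows. Among the genes that control NRF2, 2 rose with quantile normalization, and 1 to 2 on leaving out single arrays. Median centring, which called 2179 transcript clusters higher and 4870 lower, gave 5 lower among other NRF2 targets and 1 higher among heme genes. Leaving out the dimmest 50%, which also removes listed genes from the fit, gave 1 higher among the CNC-bZIP and MAF relatives and 1 higher among heme genes. Leaving out single arrays gave 2 to 3 lower among the further redox enzymes and 1 to 3 higher among heme genes. Of the genes with 2 probe sets, Esd was called on one (log2 0.39) and not on the other (0.24), and Flvcr1 was not called on the brighter (0.11) and called on the other (0.39).

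The replicate numbers did not pair the arrays, with correlations of deviations between same-numbered arrays of -0.19, -0.11 and -0.049. With the replicate block, 2579 transcript clusters were called higher and 2957 lower, and 5 of the 10 genes higher and 2 lower as without it.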
